A study of Homo sapiens with 6 samples.

Results

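The genes described here encode the enzymes that add acetyl groups to lysines and those that remove them. They are 20 acetyltransferases, 11 histone deacetylases and 7 sirtuins, chosen by name, and all 38 were found among the 39396 gene symbols of the deposited count table and passed the filter on low counts, which left 17078 genes. RNA sequencing covered 6 libraries from RKO, a human colorectal carcinoma line labelled wild type, of which 3 were labelled olaparib and 3 DMSO, the solvent. All cells were plated a day before treatment and grew in the same serum-containing medium. Olaparib blocks PARP enzymes, which detect DNA strand breaks, and the series title ties its effect to the acetyltransferase KAT2B and to the recombination gene RAD51C. The labels used here state neither dose nor treatment time, and the series rests on 1 cell line. Nothing states that the replicates were separate cultures, so p-values cover only library-to-library spread, possibly a technical one.

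Acetylation of histone tails loosens the contact of histones with DNA and creates docking sites for bromodomain proteins. Acetyltransferases take the acetyl group from acetyl-CoA. Histone deacetylases of classes I, II and IV use a zinc ion to remove it, whereas sirtuins consume NAD, the same molecule from which PARP enzymes build ADP-ribose chains. Most of these enzymes also act on proteins other than histones.

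Library totals lay between 28715138 and 42423785 counts, and the 38 genes took 0.231 to 0.254% of them. Levels are given as CPM, the count divided by the TMM-scaled library total on the usual scale. Mitochondrially encoded genes took 3.72 to 3.86% of counts in DMSO and 5.22 to 6.75% in olaparib. The labels name 1 cell line for both groups, but the marker lists differed. Of 8 genes known from the embryonic kidney line HEK293, 7 were higher on average in DMSO, with a summed level of 259 to 455 CPM there and 8.69 to 10.1 CPM in olaparib, where LIN28B, NEFL and PAX2 had no count. Of 10 genes of colorectal epithelium, 4 reached 1 CPM in DMSO and 3 in olaparib. The summed level of these 10 was 243 to 312 CPM in DMSO and 807 to 1089 CPM in olaparib, nearly all of it from the keratins KRT8 and KRT18. CDX1 had no count in any library and CDX2, the intestinal transcription factor, had none in olaparib against a mean of 24.5 CPM in DMSO. The summed levels of 6 fibroblast markers were 89.6 to 97.4 CPM in DMSO and 102 to 135 CPM in olaparib, most of it COL1A1, which was higher in olaparib, while LUM, COL3A1 and DCN were called lower. The sums of 4 endothelial markers were 1.33 to 1.55 and 22.9 to 24.5 CPM. CDH5 and PECAM1 were called higher, KDR was called lower and VWF was not called. The 5 blood markers summed to at most 2.70 CPM, and CD3E and HBB had no count in either group. Treatment and a difference in the source of the cells cannot be told apart in these libraries, so every difference below is one between libraries as labelled. In bulk RNA, fewer cells of a type and less RNA per cell cannot be told apart either.

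Of the 38 genes, 27 differed between the groups by edgeR's quasi-likelihood test at an adjusted p under 0.05 (71.1%), 11 of them higher and 16 lower in olaparib. Over all tested genes 75.7% were called, 35.4% as higher and 40.3% as lower, so the share among these enzymes was near the background. The groups did not overlap in 28 of the 38 (73.7%), against 79.4% of all tested genes. A call together with at least a 2-fold difference was found for 9 of the 38 (23.7%) and for 47.0% of all genes, and the median size of the log2 fold change, without its sign, was 0.62 and 0.94. Writers and erasers split differently by count: 8 of 20 acetyltransferases were higher, 6 lower and 6 not called (median log2 fold change 0.04), whereas 3 of 18 deacetylases and sirtuins were higher, 10 lower and 5 not called (median -0.56, and -0.09 over all tested genes). Within the acetyltransferases the split varied by family. KAT2A and KAT2B gave 0 higher and 1 lower, and KAT5, KAT6A, KAT6B, KAT7 and KAT8 gave 1 higher and 3 lower. EP300 and CREBBP gave 1 higher and 0 lower. The NCOA genes with CLOCK gave 2 higher and 1 lower, and ESCO1 and ESCO2 gave 2 higher and 0 lower. KAT14, HAT1, ELP3, GTF3C4 and TAF1 gave 2 higher and 1 lower. Neither these differences nor the one between writers and erasers was tested.

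**Figure D1:**
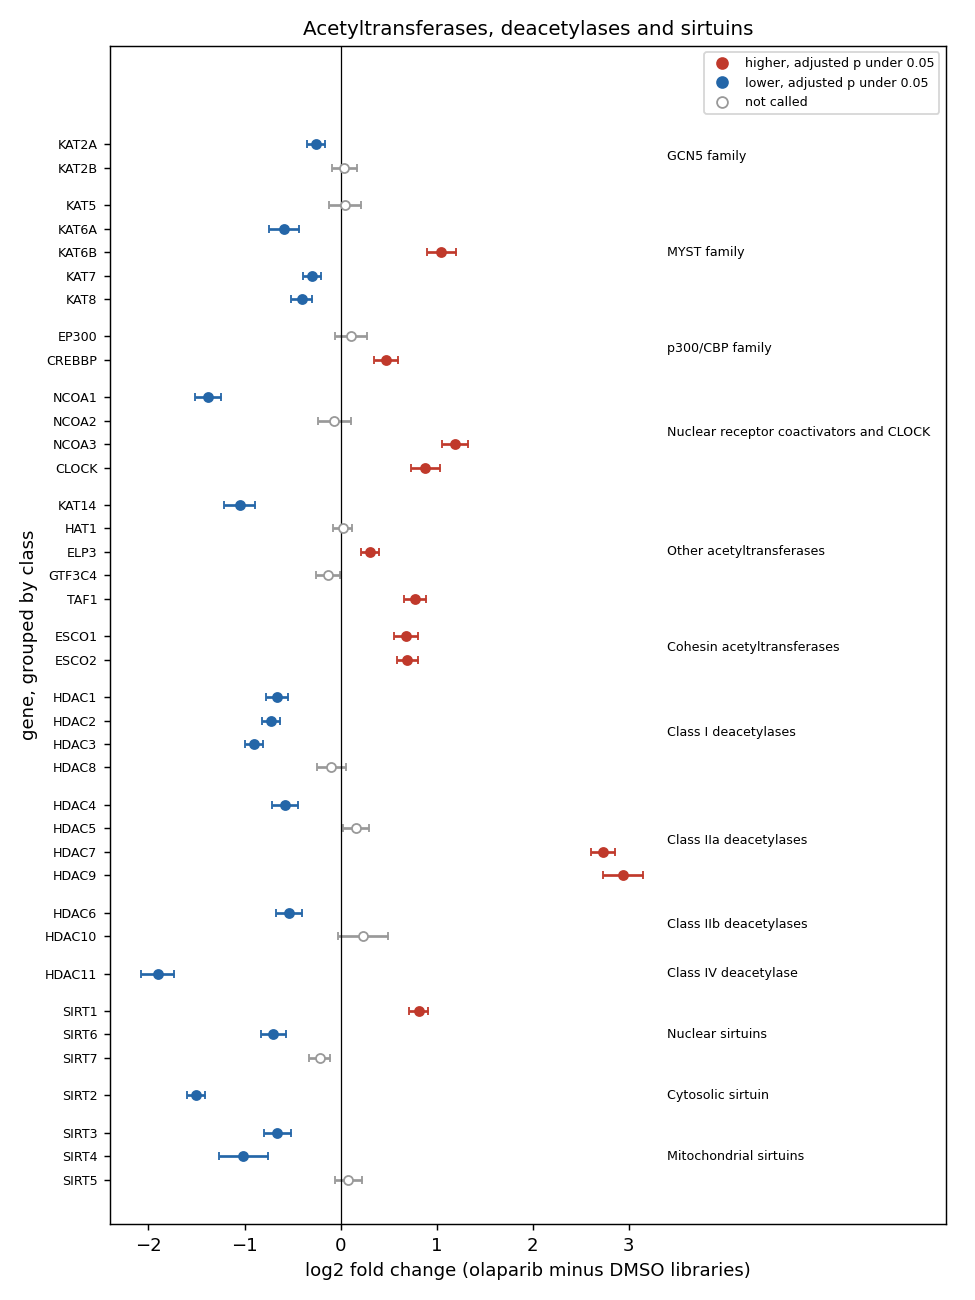
Log2 fold change of each of the 38 genes between olaparib and DMSO libraries (horizontal axis), with bars for the standard error, grouped by class; filled points passed an adjusted p of 0.05 and open points did not. HDAC7 and HDAC9 stand at 2.73 and 2.94, while HDAC11 and SIRT2 have the lowest values, at -1.904 and -1.50.

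KAT2B, the acetyltransferase in the series title, had nearly the same level in both groups. KAT2B and its paralog KAT2A are the alternative catalytic subunits of the SAGA and ATAC coactivator complexes, which acetylate histone H3. With replicates 1, 2 and 3 always in that order, KAT2B stood at 24.6, 20.2 and 26.3 CPM in DMSO and 26.1, 23.6 and 23.5 in olaparib. The groups overlapped, with a log2 fold change of 0.04 ± 0.13 (SE), a 95% interval of -0.24 to 0.32 and an adjusted p of 0.792. KAT2B lies on chromosome 3 from 20040023 to 20154404 on the plus strand (hg38). KAT2A had 106, 109 and 98.9 CPM in DMSO and 85.8, 86.8 and 90.3 in olaparib. All 3 olaparib libraries were below all 3 DMSO libraries, and KAT2A was called 1.19-fold lower (adjusted p = 0.0252). KAT2A lies on chromosome 17 from 42113108 to 42121358 on the minus strand and shares 10.7% of its exon bases with AC099811.2 on the same strand. The call was lost without any 1 of the 3 olaparib libraries (adjusted p = 0.0757, 0.1 and 0.0805). Per kb of exon, KAT2A was the more abundant of the pair, at 27.7 ± 1.35 CPM per kb in DMSO (SD, n = 3, as for all levels below) against 4.21 ± 0.559 for KAT2B. RAD51C, the other gene of the title, fell by 2.04-fold, from 59.5, 58.1 and 56.04 CPM in DMSO to 28.3, 27.995 and 28.8 in olaparib.

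The promoters of this pair are shown because the data put KAT2B beside a paralog of a higher level per length. Each sequence is the 250 bases before the start site that RefSeq gives (GRCh38.p14), at chr3:20040196-20040445 on the plus strand for KAT2B and chr17:42121368-42121617 on the minus strand for KAT2A. The KAT2B window lies inside the gene as GENCODE draws it, so another start site exists that it does not cover. Capitals mark GC boxes (GGGCGG on either strand).
KAT2B: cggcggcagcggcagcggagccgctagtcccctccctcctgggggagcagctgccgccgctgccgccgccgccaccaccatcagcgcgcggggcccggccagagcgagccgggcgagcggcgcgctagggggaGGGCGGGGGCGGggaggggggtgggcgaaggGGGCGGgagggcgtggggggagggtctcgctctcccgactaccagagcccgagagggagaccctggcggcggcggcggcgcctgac
KAT2A: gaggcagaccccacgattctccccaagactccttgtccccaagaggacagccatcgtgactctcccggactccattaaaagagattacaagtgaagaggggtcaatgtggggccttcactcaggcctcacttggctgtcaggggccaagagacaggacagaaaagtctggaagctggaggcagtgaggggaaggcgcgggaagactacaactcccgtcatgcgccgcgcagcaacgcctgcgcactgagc
The KAT2B window held 3 GC boxes, 33 CpG dinucleotides and 80.8% G and C, and the KAT2A window held 0 GC boxes, 11 CpG dinucleotides and 58.8% G and C. Among the same windows of 12517 tested genes, 65.0% held a GC box and the median content of G and C was 64.8%. A promoter entry was matched for 30 of the 38 genes, and 13 of these 30 held a GC box. KAT6A, KAT8, NCOA2, ELP3, ESCO1, ESCO2, HDAC5 and SIRT7 were not matched.

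Among the MYST acetyltransferases, a family named after its founding members, the paralogs KAT6A and KAT6B went opposite ways. KAT6A (MOZ) and KAT6B (MORF) acetylate histone H3 and are targets of chromosome translocations in leukaemia. KAT6B had 26.4, 18.1 and 26.1 CPM in DMSO and 43.5, 48.9 and 53.7 in olaparib and was 2.07-fold higher (log2 1.05 ± 0.15, adjusted p = 4.35e-05). KAT6A fell from 87.9 ± 20.96 to 58.5 ± 4.14 CPM, 1.502-fold (adjusted p = 0.00414), with its lowest DMSO library at 64.9 CPM, just above its highest olaparib library at 62.1. The log2 ratio of KAT6B to KAT6A counts, which does not depend on library scaling, was -1.89 ± 0.113 in DMSO and -0.27 ± 0.053 in olaparib. KAT7 (HBO1), which acetylates histones at replication origins, was 1.23-fold lower (83.2 ± 0.314 against 102 ± 3.36 CPM, adjusted p = 0.00983), a call that was lost on leaving out olaparib replicate 2 (adjusted p = 0.0514) or 3 (adjusted p = 0.0576). KAT8 (MOF), which acetylates histone H4, was 1.32-fold lower (42.6 ± 1.27 against 56.4 ± 6.28 CPM, adjusted p = 0.00497). KAT5 (TIP60), which acetylates the kinase ATM after DNA damage, stood at 12.3, 18.1 and 15.6 CPM in DMSO and 14.3, 17.1 and 15.99 in olaparib and was not called (adjusted p = 0.809). KAT5 shares 38.6% of its exon bases with RNASEH2C on the opposite strand, and since the labels state no strand setting for the counting, reads of these genes cannot be told apart.

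CREBBP and EP300 are large coactivators that acetylate histone H3 at active enhancers. CREBBP was 1.39-fold higher, with 171, 129 and 171 CPM in DMSO and 198, 234 and 222 in olaparib (log2 0.47 ± 0.13, adjusted p = 0.00459). EP300 had 152, 86.99 and 135 CPM in DMSO and 123, 141 and 139 in olaparib, and was not called (adjusted p = 0.56). Its DMSO replicate 2 was the lowest of the 6 libraries, and without it the log2 fold change was -0.10 in place of 0.11. The log2 ratio of EP300 to CREBBP counts was -0.36 ± 0.195 in DMSO and -0.70 ± 0.033 in olaparib, without overlap.

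In the p160 coactivators, which bind hormone-bound nuclear receptors and recruit EP300 and CREBBP, one gene fell, one rose and one was not called. NCOA1 (SRC-1) had 39.96, 30.9 and 43.7 CPM in DMSO and 14.5, 14.8 and 14.7 in olaparib. It was 2.601-fold lower, with a log2 fold change of -1.38 ± 0.14 and an adjusted p of 2.04e-06. NCOA1 lies on chromosome 2 from 24491914 to 24770702 and NCOA3 on chromosome 20 from 47501902 to 47656877, both on the plus strand (hg38). NCOA3 (AIB1), which is amplified in some breast cancers, had 52.4, 35.3 and 47.5 CPM in DMSO and 93.7, 109.7 and 106 in olaparib. It was 2.28-fold higher (log2 1.19 ± 0.14, adjusted p = 7.49e-06), and its groups did not overlap either. NCOA2 overlapped between groups, at 34.02 ± 8.48 CPM in DMSO and 32.6 ± 4.07 in olaparib (adjusted p = 0.739). As a share of the summed CPM per kb of these 3 genes, NCOA3 took 42.3, 41.2 and 38.7% in the DMSO libraries and 71.0, 72.6 and 70.0% in olaparib, while NCOA1 went from a mean of 33.7% to 9.92%. With the longest coding transcript as the length in place of all exon bases, a choice made after seeing the data, the NCOA3 means were 38.2 and 69.0%. CLOCK, a circadian transcription factor to which acetyltransferase activity has been ascribed, was 1.85-fold higher (45.1 ± 2.16 against 24.4 ± 5.49 CPM, adjusted p = 0.0002).

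NCOA1 and NCOA3 moved apart, and the 250 bases before their RefSeq starts are set side by side for that reason, at chr2:24491004-24491253 and chr20:47501637-47501886, both on the plus strand (GRCh38.p14). GENCODE starts NCOA1 further downstream, at 24491914, so the NCOA1 window does not reach the start drawn there. GC boxes are again in capitals, some of them overlapping each other.
NCOA1: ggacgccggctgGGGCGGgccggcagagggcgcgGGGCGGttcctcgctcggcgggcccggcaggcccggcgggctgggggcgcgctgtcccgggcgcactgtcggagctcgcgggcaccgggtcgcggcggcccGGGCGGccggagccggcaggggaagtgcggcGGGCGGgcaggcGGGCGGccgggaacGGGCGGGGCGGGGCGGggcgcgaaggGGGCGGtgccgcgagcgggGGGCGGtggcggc
NCOA3: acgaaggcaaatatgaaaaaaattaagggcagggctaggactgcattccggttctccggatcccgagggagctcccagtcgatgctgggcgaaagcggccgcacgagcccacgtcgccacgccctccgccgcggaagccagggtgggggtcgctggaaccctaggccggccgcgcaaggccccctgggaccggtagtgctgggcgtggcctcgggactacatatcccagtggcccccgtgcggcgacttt
The NCOA1 window held 10 GC boxes and 46 CpG dinucleotides, with 87.2% G and C, the highest content among the 30 matched genes. The NCOA3 window held 0 GC boxes and 25 CpG dinucleotides, with 66.4% G and C. No match says only that these letters are not in this window.

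The remaining acetyltransferases were mixed. KAT14, the catalytic partner subunit of the ATAC complex, fell 2.07-fold, from 14.2, 18.4 and 14.7 CPM to 7.19, 7.61 and 7.996 CPM (adjusted p = 7.44e-05). It shares 16.7% of its exon bases with PET117 on the same strand, which had 83 counts over all libraries. TAF1, the largest subunit of the general transcription factor TFIID, was 1.71-fold higher (94.1 ± 7.02 against 54.9 ± 6.88 CPM, adjusted p = 5.45e-05). ELP3, the catalytic subunit of Elongator, which modifies wobble uridines of tRNA, was 1.24-fold higher (49.7 ± 0.801 against 40.2 ± 0.648 CPM, adjusted p = 0.0104), a call that edgeR lost without olaparib replicate 2 (adjusted p = 0.0506). Neither HAT1, which acetylates newly made histone H4 (83.2 ± 5.11 against 81.95 ± 5.35 CPM, adjusted p = 0.847), nor GTF3C4, a subunit of the RNA polymerase III factor TFIIIC (105 ± 9.84 against 115 ± 17.4 CPM, adjusted p = 0.35), was called. GTF3C4 was called lower without DMSO replicate 2 (log2 -0.26, adjusted p = 0.0356).

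Both cohesin acetyltransferases were higher by nearly the same amount. ESCO1 and ESCO2 acetylate SMC3, a ring subunit of cohesin, and ESCO2 does so in S phase to hold sister chromatids together. ESCO1 had 28.7, 24.4 and 31.8 CPM in DMSO and 42.5, 44.9 and 49.002 in olaparib (1.602-fold, adjusted p = 0.000266). ESCO2 had 28.3, 25.8 and 29.3 CPM in DMSO and 45.98, 47.2 and 41.9 in olaparib (1.62-fold, adjusted p = 7.96e-05). Groups did not overlap for either gene, and the log2 ratio of ESCO2 to ESCO1 was -0.02 ± 0.098 in DMSO and -0.01 ± 0.185 in olaparib (exact two-sided permutation p = 1). Of 11 cohesin genes and regulators, 6 were higher, 2 lower and 3 not called, with a median of 0.29. Over all tested genes 35.4% were higher and 40.3% lower, and this list was not tested against them. NIPBL, which loads cohesin, was 3.79-fold higher (371 ± 35.7 against 97.8 ± 18.2 CPM), SMC3 2.21-fold and PDS5A 1.93-fold higher. CDCA5 (sororin), which protects acetylated cohesin from release, was 2.23-fold lower (84.7 ± 2.81 against 189 ± 13.4 CPM), and MAU2, the partner of NIPBL, 1.19-fold lower, the latter not called without olaparib replicate 2 (adjusted p = 0.105) or 3 (adjusted p = 0.13).

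The class I deacetylases HDAC1, HDAC2 and HDAC3 were all lower in olaparib. HDAC1 and HDAC2 are the catalytic subunits of the SIN3, NuRD and CoREST corepressor complexes, and HDAC3 works in a corepressor complex of its own. HDAC1 had 359.5, 293 and 272 CPM in DMSO and 194, 192 and 198 in olaparib (1.58-fold lower, adjusted p = 0.000245). HDAC2 had 159, 171 and 151 CPM in DMSO and 95.1, 93.8 and 102 in olaparib (1.65-fold lower, adjusted p = 2.27e-05). In HDAC3 the values were 101, 108 and 100.4 CPM and 57.1, 54.6 and 54.2 CPM (1.86-fold lower, adjusted p = 2.48e-06), and 9.20% of its exon bases are shared with the antisense gene AC008781.1. The 3 olaparib libraries lay within a narrow range in each case and below every DMSO library. HDAC8, which deacetylates SMC3 and so undoes the work of the ESCO enzymes, overlapped between groups, at 22.7, 17.4 and 20.3 CPM in DMSO and 16.3, 21.7 and 18.5 in olaparib (adjusted p = 0.57). HDAC1 was the most abundant of the 18 erasers per kb of exon in both groups, at 77.8 ± 11.5 CPM per kb in DMSO and 49.1 ± 0.764 in olaparib. The summed level of class I was 111 ± 11.5 CPM per kb in DMSO and 68.2 ± 0.894 in olaparib, but its make-up moved little: HDAC1 took 69.7 ± 3.13% of it in DMSO and 72.1 ± 0.259% in olaparib.

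Class IIa held the 2 largest rises among the 38 genes. These deacetylases shuttle between nucleus and cytoplasm, have weak enzyme activity of their own and act largely by binding MEF2 transcription factors and the HDAC3 corepressor complex. HDAC7, known from thymocytes and endothelial cells, had 51.04, 45.4 and 40.5 CPM in DMSO and 263, 322 and 325 in olaparib. It was 6.64-fold higher, with a log2 fold change of 2.73 ± 0.13 and an adjusted p of 3.18e-09. HDAC9, known from muscle, brain and regulatory T cells, had 4.51, 2.56 and 3.41 CPM in DMSO and 22.99, 30.7 and 27.5 in olaparib, a 7.68-fold rise (log2 2.94 ± 0.21, adjusted p = 8.73e-08). In both genes every olaparib library stood far above every DMSO library. HDAC4 went the other way, from 26.02, 24.9 and 26.8 CPM to 19.95, 16.7 and 15.4 CPM (1.49-fold lower, adjusted p = 0.00154), and HDAC5 overlapped between groups, at 90.5, 137 and 122 and 135, 131 and 124 CPM (adjusted p = 0.294). HDAC7 lies on chromosome 12 from 47782722 to 47833132 on the minus strand and HDAC9 on chromosome 7 from 18086949 to 19002416 on the plus strand (hg38). HDAC7 shares 9.70% of its exon bases with the antisense gene AC004466.1. The summed endothelial markers were also higher in olaparib, where CDH5 alone made up 20.5 ± 0.106 CPM, although KDR, another of the 4, was lower (0.0472 ± 0.0817 against 0.676 ± 0.197 CPM). Their part in the HDAC7 result was not tested.

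**Figure D2:**
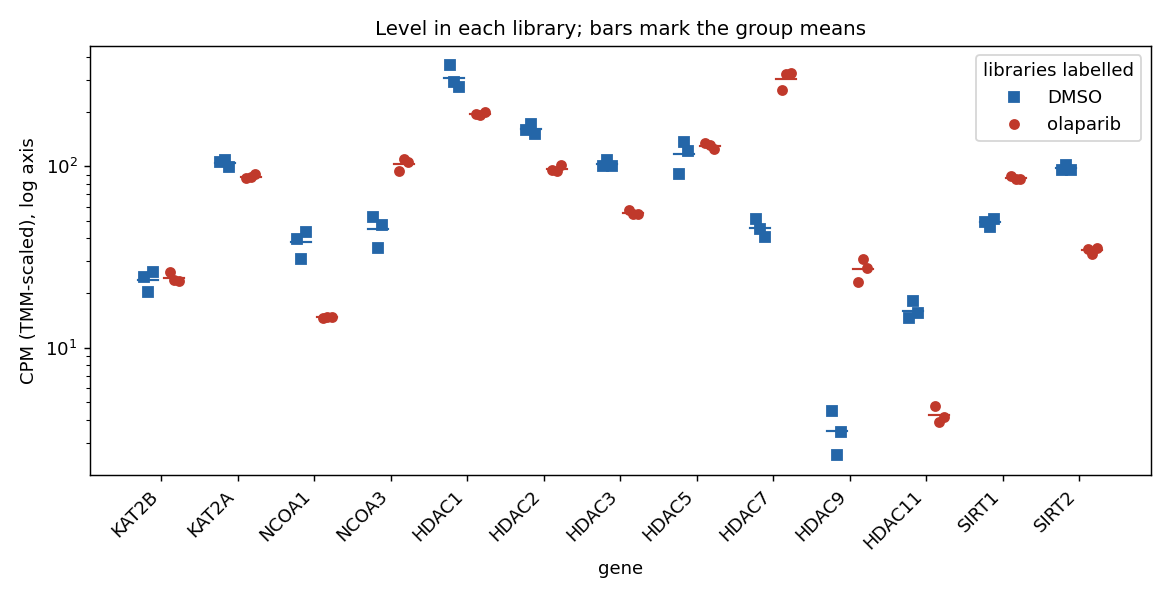
Level of 13 of the genes in each library, in CPM on a log axis; squares are DMSO libraries, circles olaparib libraries, and bars the group means. HDAC7 and HDAC9 separate upward in olaparib and NCOA1, HDAC11 and SIRT2 downward, while KAT2B and HDAC5 overlap.

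The class IIa gene with the largest share differed between the groups. Per kb of exon, HDAC5 took 61.8, 73.1 and 71.8% of the class in the DMSO libraries and 37.6, 32.7 and 31.5% in olaparib. HDAC7 took 26.7, 18.6 and 18.3% in DMSO and 56.3, 61.5 and 63.2% in olaparib. With the longest coding transcript as the length, the mean share of HDAC7 was 31.1% in DMSO and 71.6% in olaparib, with the same order of HDAC5 and HDAC7 in each group. The summed level of the class rose from 22.01 ± 2.65 to 50.5 ± 3.08 CPM per kb. HDAC9 stayed a minor member, at 0.208 ± 0.058 CPM per kb in DMSO, the lowest of the 18 erasers, and 1.61 ± 0.23 in olaparib.

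**Figure D3:**
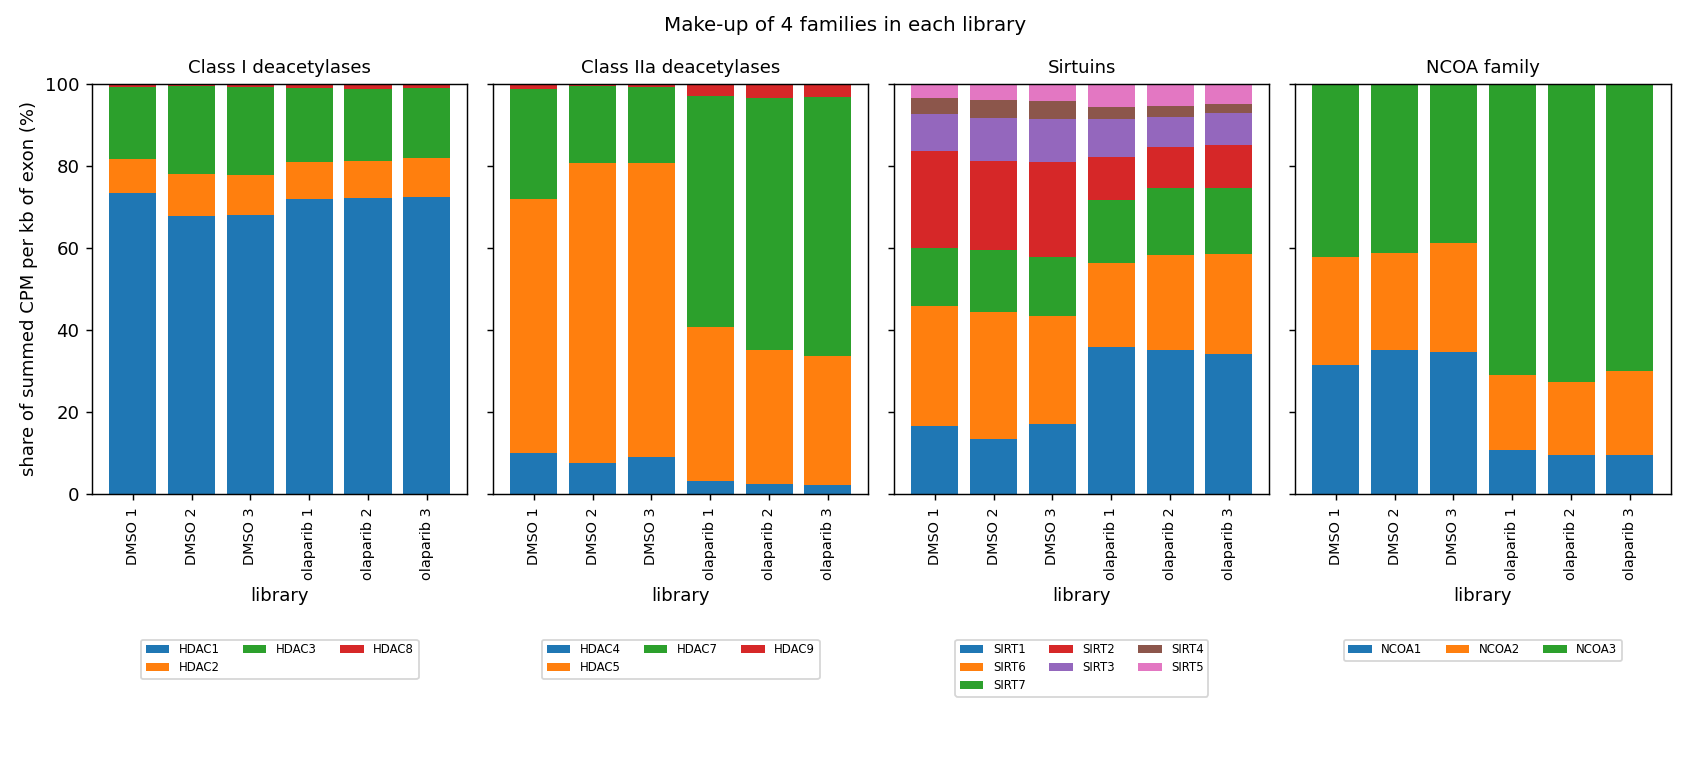
Share of each gene in the summed CPM per kb of exon of its family (percent, vertical axis) in each of the 6 libraries, for class I deacetylases, class IIa deacetylases, sirtuins and the NCOA coactivators. The class I bars are nearly equal across libraries, HDAC7 replaces HDAC5 as the larger part of class IIa in olaparib, and NCOA3 grows from about 40.7 to 71.2% of its family.

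The promoters of HDAC7 and HDAC9 are printed because these genes rose together, at chr12:47819904-47820153 on the minus strand and chr7:18495499-18495748 on the plus strand (GRCh38.p14). Both RefSeq starts lie inside the gene as GENCODE draws it, so other start sites exist that these windows do not cover. Capitals mark matches, on either strand, to the CCAAT box (CCAAT) and the AP-1 site (TGANTCA), the motifs found there out of 8 that were searched. The others were the TATA box (TATAAA), the GC box, the E box (CACGTG), the CRE (TGACGTCA), the ETS site (CCGGAAG) and the MEF2 site, and matches were counted whether or not they overlapped.
HDAC7: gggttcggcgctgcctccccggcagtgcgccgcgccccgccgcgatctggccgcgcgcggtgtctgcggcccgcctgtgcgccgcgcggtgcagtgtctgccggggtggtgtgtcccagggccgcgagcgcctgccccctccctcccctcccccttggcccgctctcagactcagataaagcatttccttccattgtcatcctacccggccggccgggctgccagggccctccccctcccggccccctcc
HDAC9: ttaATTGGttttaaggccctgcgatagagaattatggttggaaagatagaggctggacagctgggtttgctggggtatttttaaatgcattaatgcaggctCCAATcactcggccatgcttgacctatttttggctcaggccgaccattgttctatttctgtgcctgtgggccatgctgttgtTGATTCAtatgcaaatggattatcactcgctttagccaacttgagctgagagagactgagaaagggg
The 2 windows have little in common. The HDAC7 window held none of the 8 motifs, with 75.6% G and C and 28 CpG dinucleotides. In the HDAC9 window there were 45.2% G and C, 4 CpG dinucleotides, 2 CCAAT boxes and 1 AP-1 match that runs from 67 to 61 bases before the start. Of the 12517 windows of tested genes, 34.6% held a CCAAT box and 4.22% an AP-1 match. A MEF2 match was present in 1.48% of them and in 0 of the 30 matched enzymes.

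MEF2D, a binding partner of the class IIa enzymes, was 2.61-fold higher, with 68.7, 67.7 and 79.8 CPM in DMSO and 188, 194 and 182 in olaparib (adjusted p = 1.28e-07). MEF2A was 1.301-fold higher (adjusted p = 0.016), MEF2C was not called (12.7 ± 1.16 against 14.5 ± 1.69 CPM, adjusted p = 0.257) and MEF2B, with 38 counts in all, did not pass the filter. With library size alone in place of TMM scaling MEF2A was not called (adjusted p = 0.0539).

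HDAC6, a cytoplasmic class IIb enzyme that deacetylates tubulin, was 1.45-fold lower, at 62.2, 86.8 and 92.1 CPM in DMSO and 58.3, 55.4 and 52.3 in olaparib (adjusted p = 0.00358). HDAC10, a deacetylase of polyamines, had 2.45 ± 0.567 CPM in DMSO and 2.86 ± 0.227 in olaparib and was not called (adjusted p = 0.429). It shares 55.8% of its exon bases with MAPK12 on the same strand, so its counts are uncertain. HDAC11, the only class IV enzyme, which removes long fatty acyl groups from lysines, showed the largest fall of the 38 genes by edgeR. It had 14.6, 17.997 and 15.6 CPM in DMSO and 4.78, 3.89 and 4.17 in olaparib, 3.74-fold lower, with a log2 fold change of -1.904 ± 0.17 and an adjusted p of 7.33e-07. HDAC11 lies on chromosome 3 from 13479724 to 13506424 on the plus strand (hg38).

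Of the 7 sirtuins, SIRT1 was higher, 4 were lower and 2 were not called. Over all tested genes 35.4% were higher and 40.3% lower, and the sirtuins were not tested against them. SIRT1, a nuclear enzyme that deacetylates p53 and histones, had 49.6, 46.2 and 51.4 CPM in DMSO and 88.5, 85.03 and 85.1 in olaparib (1.76-fold higher, adjusted p = 7.19e-06). SIRT2, a mostly cytosolic deacetylase of tubulin, had 95.9, 102 and 95.5 CPM in DMSO and 34.9, 32.96 and 35.5 in olaparib (2.84-fold lower, log2 -1.50 ± 0.10, adjusted p = 3.76e-08). Neither gene had overlapping groups. SIRT2 lies on chromosome 19 from 38878555 to 38899862 on the minus strand (hg38). SIRT6, a chromatin sirtuin that stimulates PARP1 at DNA breaks, was 1.62-fold lower (52.9, 64.6 and 48.8 CPM in DMSO, 30.7, 34.4 and 37.1 in olaparib, adjusted p = 0.000299). SIRT7, a nucleolar sirtuin, had non-overlapping groups (53.2 ± 1.52 against 61.9 ± 6.86 CPM) but was not called (adjusted p = 0.0808). It was called lower with library size alone (adjusted p = 0.0261) and without DMSO replicate 1 (adjusted p = 0.0304).

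Of the mitochondrial sirtuins, SIRT3, the main deacetylase of the matrix, was 1.58-fold lower (22.7 ± 3.13 against 35.7 ± 5.11 CPM, adjusted p = 0.00108). It shares 6.07% of its exon bases with PSMD13 on the opposite strand, which had 28660 counts over all libraries. With no strand setting stated, reads of the shared bases cannot be told apart. SIRT4 was 2.01-fold lower at a low level (1.73 ± 0.249 against 3.504 ± 0.429 CPM, adjusted p = 0.0033). SIRT5, which removes succinyl and malonyl groups, was not called (18.99 ± 1.14 against 17.96 ± 2.46 CPM, adjusted p = 0.608), and 16.1% of its exon bases are shared with the antisense gene AL441883.1. Per kb of exon SIRT1 took 15.7 ± 1.95% of the 7 sirtuins in DMSO and 35.0 ± 0.884% in olaparib, and SIRT2 took 22.8 ± 0.942% and 10.2 ± 0.262%. With the longest coding transcript as the length these means were 8.07 and 20.3% for SIRT1 and 31.7 and 16.1% for SIRT2.

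HDAC11 and SIRT2 are the 2 erasers with the largest falls, and the 250 bases before their RefSeq starts were taken at chr3:13480056-13480305 on the plus strand and chr19:38899619-38899868 on the minus strand (GRCh38.p14). The HDAC11 window and nearly all of the SIRT2 window lie inside the genes as GENCODE draws them. Capitals mark GC boxes and CCAAT boxes on either strand.
HDAC11: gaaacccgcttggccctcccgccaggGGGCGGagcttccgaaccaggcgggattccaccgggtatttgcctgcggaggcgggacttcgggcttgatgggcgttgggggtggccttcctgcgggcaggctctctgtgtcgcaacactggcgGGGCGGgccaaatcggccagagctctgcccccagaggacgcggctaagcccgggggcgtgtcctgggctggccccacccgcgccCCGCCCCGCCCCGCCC
SIRT2: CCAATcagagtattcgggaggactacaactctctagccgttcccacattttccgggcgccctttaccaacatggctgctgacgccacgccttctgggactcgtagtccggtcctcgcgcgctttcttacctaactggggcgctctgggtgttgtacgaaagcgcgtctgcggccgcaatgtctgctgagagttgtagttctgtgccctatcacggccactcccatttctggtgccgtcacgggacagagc
HDAC11 had 5 GC boxes, 3 of them in a run that ends at the last base before the start. In SIRT2 the single match was a CCAAT box at the far end of the window, and its content of G and C was 58.4% against 73.6% for HDAC11. Thus the falling pair, like the rising pair, shared no motif of the 8.

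Ratios within a library show how paralogs moved against each other without any scaling between libraries. They were taken for 13 pairs of these enzymes and not for pairs of other genes. Of the 13 pairs, 10 had no overlap between the groups, where the levels of 79.4% of all single tested genes had none. Each of these 10 reached an exact two-sided permutation p of 0.1, the smallest that 3 libraries against 3 can give (0.13 after Benjamini-Hochberg adjustment over the 13 pairs). HDAC9 to HDAC4 had the largest difference, 11.8-fold, from a log2 ratio of -2.92 ± 0.376 in DMSO to 0.64 ± 0.378 in olaparib. NCOA3 to NCOA1 differed 5.94-fold, HDAC7 to HDAC5 5.85-fold, KAT6B to KAT6A 3.08-fold, SIRT1 to SIRT6 2.85-fold and NCOA2 to NCOA1 2.51-fold. The pairs that overlapped were KAT2B to KAT2A (log2 ratio -2.15 ± 0.263 in DMSO and -1.85 ± 0.116 in olaparib), HDAC1 to HDAC2 (0.94 ± 0.214 and 1.01 ± 0.04) and ESCO2 to ESCO1.

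Genes near these enzymes on the chromosome often differed too, but so did 75.7% of all tested genes. The median log2 fold change over all tested genes was -0.09. For each of the 38, the median log2 fold change of the other tested protein-coding genes within 5 Mb was taken, and 31 of these 38 medians were below 0. The sign of the neighbours was shared by 15 of the 16 lower genes and by 5 of the 11 higher genes. Neighbour medians around other genes were not computed, so these counts cannot be set against a share over all genes. HDAC1 (-0.66, neighbours -0.58), HDAC2 (-0.73 and -0.68), SIRT6 (-0.70 and -0.63) and ELP3 (0.31 and 0.32) lay close to the median of their neighbours. KAT14 fell by less than the median of its 32 neighbours, which was -1.43, with 10 of them above it and 22 below. KAT2B stood at 0.04 among 27 neighbours with a median of -0.73, of which 10 were above it and 17 below. HDAC9 (neighbours -0.10) and HDAC7 (neighbours 0.35) exceeded the median by 3.04 and 2.38, with 4 of 29 and 7 of 90 neighbours above them. CLOCK (0.88 and -0.80), TAF1 (0.78 and -0.66), NCOA3 (1.19 and -0.05), ESCO1 (0.68 and -0.16) and CREBBP (0.47 and -0.08) were also higher where their neighbours' median was below 0. Within 2 Mb the median around ESCO1 was 0.32, so that its sign there was shared. HDAC3 (-0.90) was lower where its 99 neighbours, which include the clustered protocadherins, had a median of 0.69, or 0.31 over the 44 whose mean reached 5 CPM in DMSO and in olaparib. The gap between a gene and its neighbours was not tested.

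**Figure D4:**
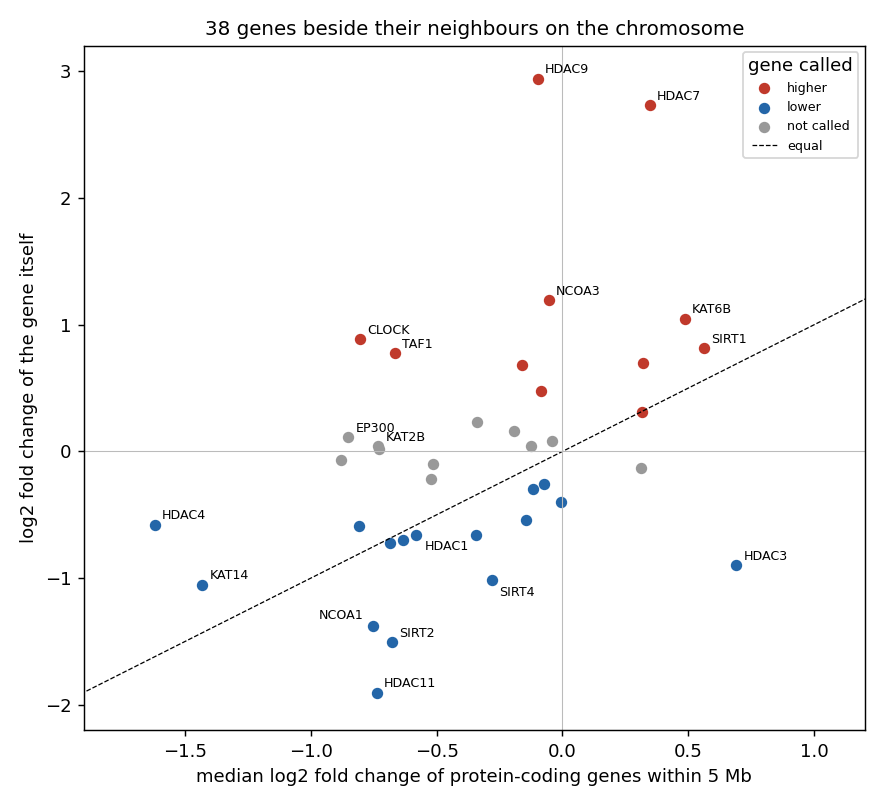
Log2 fold change of each of the 38 genes (vertical axis) against the median of the protein-coding genes within 5 Mb of it (horizontal axis); the dashed line marks equal values and colours give the call. HDAC9, HDAC7, CLOCK, TAF1 and NCOA3 lie far above the line and HDAC3 far below it, while HDAC1 lies close to it.

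The partners of the erasers showed no common direction. Of 34 subunits of deacetylase corepressor complexes, 11 were higher, 15 lower and 8 not called, with a median of -0.09, equal to that of all tested genes. Among all tested genes 35.4% were higher and 40.3% lower. CHD3, a NuRD remodeller, was 3.03-fold higher (398 ± 33.6 against 131 ± 18.1 CPM) and RCOR3 1.902-fold higher. RCOR2, a CoREST scaffold, was 11.8-fold lower (1.19 ± 0.490 against 14.03 ± 1.68 CPM), BRMS1L of the SIN3 complex 2.599-fold and MBD3 of NuRD 2.34-fold lower. The adjusted p of these 5 genes was at most 6.59e-06.

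Among partners of the writers, 10 of 29 subunits of MYST complexes were higher, 9 lower and 10 not called, with a median of 0.12. The background for these and for the Elongator subunits below is 35.4% higher and 40.3% lower over all tested genes. JADE2, a scaffold that directs KAT7 to histone H4, was 15.002-fold higher, with 29.2, 21.3 and 21.7 CPM in DMSO and 323, 384 and 378 in olaparib (adjusted p = 7.15e-10). BRD8 of the TIP60 complex was 1.86-fold and ING3 of the same complex 1.67-fold higher, while ING5, BRD1 and MEAF6, which all take part in KAT6 or KAT7 complexes, were 3.07-fold, 1.94-fold and 1.98-fold lower. Of the 5 other Elongator subunits, 4 were lower, 0 higher and 1 not called, where ELP3 itself was higher. ELP6 was 4.02-fold (23.4 ± 1.74 against 93.9 ± 10.6 CPM), ELP4 1.81-fold and ELP2 1.69-fold lower.

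Readers of acetyl-lysine were higher in 11 of 23 cases, lower in 5 and not called in 7, with a median of 0.19. Over all tested genes the shares were 35.4% higher and 40.3% lower, and the difference from them was not tested. BRD9, a bromodomain subunit of a SWI/SNF complex, was 2.92-fold higher (205 ± 3.47 against 70.4 ± 5.07 CPM), BAZ2B 3.37-fold and ZMYND8 1.73-fold higher. CECR2, a bromodomain protein of a remodelling complex, fell from 42.2, 24.03 and 34.6 CPM to 0.628, 0.686 and 0.389 CPM, 58.7-fold, and BRD2 and YEATS2 were 1.95-fold and 1.64-fold lower.

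The median size of the log2 fold change without its sign was 0.76 for genes of acetyl-CoA supply, 0.62 for the 38 enzymes and 0.94 over all tested genes. Among 13 genes of acetyl-CoA supply, 5 were higher, 4 lower and 4 not called, beside 35.4% higher and 40.3% lower over all tested genes. ACSS2, which makes acetyl-CoA from acetate in the nucleus and cytosol, had 50.4, 50.5 and 50.6 CPM in DMSO and 349, 498 and 504 in olaparib and was 8.92-fold higher (adjusted p = 3.02e-09). Its mitochondrial paralog ACSS1 had 31.3, 13.3 and 13.4 CPM in DMSO and no count in olaparib, at least 580.0-fold lower against a floor of 3 counts over the 3 olaparib libraries. ACLY, which makes acetyl-CoA from citrate, was 1.94-fold higher (813 ± 134 against 419.9 ± 84.3 CPM) and ACAT2, which uses acetyl-CoA, 2.16-fold higher. PDK3, a brake on pyruvate dehydrogenase, and PDHB, one of its subunits, were 2.01-fold and 1.69-fold lower.

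In the genes of NAD supply and use, 5 of 10 were higher, 4 lower and 1 not called, where 75.7% of all tested genes were called. Their median size without sign was 1.76, and 0.94 over all tested genes. The list was chosen with earlier results of these data known, so this gap cannot be read as a result about NAD genes. QPRT, which makes NAD precursor from tryptophan breakdown, had 106, 101 and 87.9 CPM in DMSO and 6 counts over the olaparib libraries, none of them in replicate 3 (log2 -10.41 ± 0.27, adjusted p = 8.02e-11). NAPRT, which uses nicotinic acid, had 11.8, 13.8 and 11.2 CPM in DMSO and 109, 104 and 112 in olaparib and was 8.86-fold higher. NNMT, which methylates nicotinamide, was 9.36-fold higher (42.9 ± 4.24 against 4.62 ± 1.08 CPM) and NADK, which phosphorylates NAD, 2.32-fold higher. NMNAT1 and NMNAT2, the nuclear and the Golgi-bound enzyme of the last step to NAD, were 3.17-fold and 18.5-fold lower. NAMPT, the rate-limiting enzyme of NAD recovery from nicotinamide, which both sirtuins and PARPs release, was not called (74.7 ± 2.86 against 81.4 ± 1.65 CPM, adjusted p = 0.239).

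**Figure D5:**
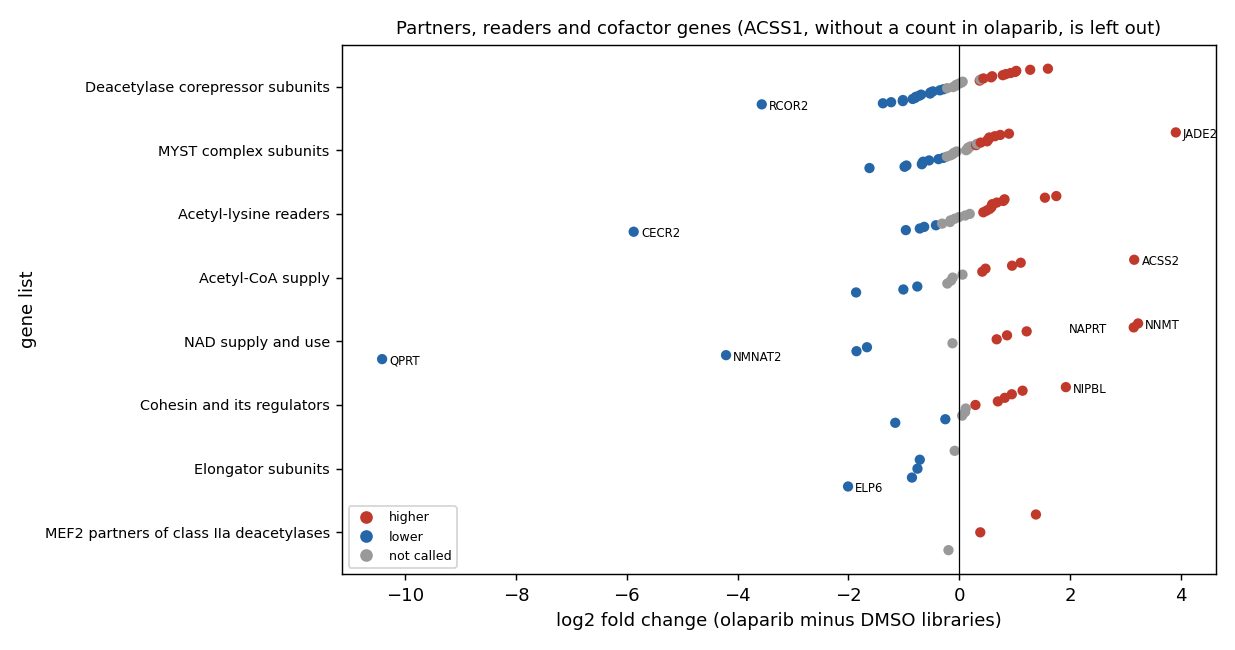
Log2 fold change (horizontal axis) of the tested genes in 8 lists of partners, readers and cofactor genes (vertical axis), 1 point per gene; red was called higher, blue lower, grey not called, and the height within a list only orders the points. QPRT, CECR2 and NMNAT2 lie far to the left and JADE2, NNMT, ACSS2 and NAPRT far to the right; ACSS1 is left out because it had no olaparib count.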

How the data were processed

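RNA was sequenced from 6 libraries, 3 a group. Values are whole-number counts per gene symbol in a single table as the authors deposited it. Per the submitters' processing notes, fastp, STAR and hg38 were used. For the counting program, its strand setting and its annotation, the entry is: not given in the sources used here. Genes with 2 counts outnumbered those with 1 in each library, and the floor covers counting error only. Counts were tested over the whole table with edgeR 4.0.16 (R 4.3.3), with its default filter, TMM scaling, robust quasi-likelihood dispersions, treatment as the only term and Benjamini-Hochberg adjustment over 17078 genes. The script was tested on simulated data. Standard errors came from the F statistic. Positions, exon lengths and overlaps came from GENCODE release 29 on the same assembly, matched by symbol for 99.8% of rows, and promoters from RefSeq. Pairs within groups differed beyond sampling noise (chi-square per degree of freedom 4.74 to 68.6).

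The 38 genes and all lists were chosen with earlier results of these data known. Named were all 38, RAD51C, marker genes where labels were checked and, per list of partners, up to 3 called genes a direction with the smallest adjusted p and a mean of at least 1 CPM in 1 group. Genes named beyond that rule (MEF2B, MEF2C, NAMPT) were chosen after their values were seen. Ratios within libraries had 0.5 added to each count. Alternatives were RLE factors, library size alone, 2 other filters, DESeq2 1.42.0, limma-voom (limma 3.58.1), the replicate block, counts divided by 2, stricter calls, 1 added to each count, other neighbour sets and the loss of each library. The result of 1 gene that the rule names is not reported here.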

Additional observations from a re-analysis of the deposited data

How the results depend on the processing

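Of 532 combinations of the 38 genes with an alternative, 507 kept direction and call, and 24 of the 27 called genes did so throughout; KAT2A, KAT7 and ELP3 did not. The count of lower acetyltransferases was 3 in place of 6 when at least a 1.5-fold difference was required; the other counts stayed within 1.5 times. Without each library the 38 genes gave 10 to 11 higher and 14 to 17 lower calls. Only uncalled genes changed sign: scaling by library size put KAT2B at -0.031, KAT5 at -0.021 and HAT1 at -0.046, and the cause was not tested. Without each library the log2 fold changes ran from -0.075 to 0.11 (KAT2B), -0.10 to 0.17 (KAT5), -0.10 to 0.27 (EP300), -0.27 to 0.028 (NCOA2), -0.039 to 0.074 (HAT1), -0.0022 to 0.28 (HDAC5) and -0.036 to 0.15 (SIRT5). The ratio differences ran from -0.055 to 0.11 (ESCO2 to ESCO1) and -0.0082 to 0.19 (HDAC1 to HDAC2). Deviations of same-numbered libraries from their group means had correlations of -0.0901, -0.0423 and -0.00173. With 3 libraries a group, such values cannot decide whether the numbers mark a shared batch, and the labels do not say. With the replicate block in edgeR 11 genes were higher and 15 lower, and 1 call of the 38 was lost, KAT2A (adjusted p = 0.0642). Of 40 named partner genes 38 kept their calls, MAU2 and MEF2A being the exceptions. Family shares depend on gene length: another length moved 41 of 54 mean shares beyond 1 SD, by up to 14.7 percentage points. Of 76 neighbour medians under other settings, 49 moved. At each setting 20 called genes had the sign of their neighbours, 19 of them the same genes throughout: within 2 Mb SIRT3 no longer shared it and ESCO1 did. Depth limits SIRT4, HDAC10 and HDAC9 in DMSO most.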
